A study of Mus musculus with 12 samples.

Results

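A set of 10 genes of the brain's extracellular matrix was followed in mouse spinal cord at day 4 and day 15, comparing Olig2cre/DA-Cat mice with their wild-type littermates: Acan, Bcan, Ncan and Vcan (the lecticans), the link proteins Hapln1 and Hapln4, the tenascins Tnr and Tnc, and the chondroitin sulfate proteoglycans Cspg5 and Ptprz1. All probe sets annotated to these symbols were taken, which gave 26 probe sets for 10 genes, of 45101 probe sets and 18194 named genes measured. Total RNA was hybridised to 12 one-colour Affymetrix arrays, 3 biological replicates for each of the 4 groups of genotype and day. Olig2cre places Cre recombinase in cells that use Olig2, which include the oligodendrocyte lineage and motor neurons, and DA-Cat is a dominant-active form of β-catenin, which carries the canonical Wnt signal into the nucleus. No group carried Cre alone, so Cre and DA-Cat cannot be told apart. The labels do not give the number of animals behind a sample, and p-values measure the spread between these samples. Their stage tags read Day 4 and Day 15, while the protocol text speaks of adults aged 8 to 10 weeks, with or without a lysolecithin lesion 14 days old, so what the days are counted from is not settled.

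Lecticans are large core proteins that carry chondroitin sulfate chains and bind hyaluronan at one end and tenascins at the other. Link proteins fasten the hyaluronan bond, and tenascin-R joins several lecticans together. In the developing nervous system a loose matrix rich in neurocan and tenascin-C is replaced by a tighter one with tenascin-R and link proteins, which condenses around certain neurons as perineuronal nets and around nodes of Ranvier. Oligodendrocyte precursors, astrocytes and neurons all contribute to it.

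The array medians lay between 6.14 and 6.19 on the log2 scale of the deposited signals, and 2 arrays of a group correlated at 0.992 or more over all probe sets. The source label names ventrolateral white matter, yet the mean level of 12 neuron markers lay between 11.95 and 12.20 on every array, above the 90th percentile of all gene levels (10.39). That sets different probe sets side by side and does not settle which tissue was taken. Skeletal muscle markers ranged from 5.10 to 11.10 between arrays and stood highest in Olig2cre/DA-Cat at day 15, replicate 1. The arrays measure RNA of whole tissue, so fewer cells of a type and less RNA per cell cannot be told apart in any of these comparisons. Differences are log2, given with the standard error of the limma fit, and a gene is called where its Benjamini-Hochberg adjusted p over all 18194 genes is under 0.05. Apart from means over probe sets or genes, differences between groups are taken within a probe set. A percentile or a rank by brightness sets different probe sets side by side and is rough.

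Of the 10 genes, 7 changed between day 4 and day 15 in wild type, and 8 did so in Olig2cre/DA-Cat, in comparisons that called 44.9% and 48.1% of all genes. Tnc, Ncan, Cspg5 and Ptprz1 fell in both genotypes, and Hapln1, Hapln4 and Tnr rose in both. Between the genotypes Tnr alone was called, at -0.92 in Olig2cre/DA-Cat at day 4, and no member was called at day 15.

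The 250 bases upstream of the RefSeq start of Tnr and Ncan are printed here from GRCm38.p6. These 2 members changed in opposite directions with day, as did other pairs of members with a promoter entry. They are the only 2 whose stretch held a string marked below. Tnr lies on the plus strand at chr1:159523519-159523768 and Ncan on the minus strand at chr8:70120845-70121094, both written 5′ to 3′ on the strand of the gene. Capitals mark the letters CTTTGA, a core that TCF and LEF factors bind, and ACAAAG, a core bound by SOX factors, on either strand. ACAAAG reads CTTTGT on the other strand, which TCF and LEF factors can bind as well, so the strings do not separate these factors.
Tnr: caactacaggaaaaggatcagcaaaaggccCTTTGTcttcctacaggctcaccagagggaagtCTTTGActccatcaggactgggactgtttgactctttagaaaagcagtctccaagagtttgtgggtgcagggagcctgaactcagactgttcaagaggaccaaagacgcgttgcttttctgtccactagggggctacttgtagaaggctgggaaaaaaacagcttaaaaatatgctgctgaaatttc
Ncan: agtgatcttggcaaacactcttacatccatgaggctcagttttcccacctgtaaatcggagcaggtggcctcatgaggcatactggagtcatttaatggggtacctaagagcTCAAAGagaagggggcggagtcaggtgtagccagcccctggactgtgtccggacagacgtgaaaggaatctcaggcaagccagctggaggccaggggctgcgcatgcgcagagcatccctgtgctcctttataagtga
The Tnr stretch held CTTTGA once, from 187 to 182 bases before the start, and ACAAAG once on the opposite strand (printed as CTTTGT), from 220 to 215 bases before it. In Ncan CTTTGA occurred once on the opposite strand (printed as TCAAAG), from 138 to 133 bases before the start. RefSeq promoter entries were matched for 8 of the 10 genes (9 starts, 2 of them for Tnc), and the other 7 starts held neither string. Over all 32851 promoter stretches of the same length 13.8% held CTTTGA and 16.5% held ACAAAG. A match describes the letters only.

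Tnr encodes tenascin-R, the tenascin of the adult central nervous system, made by oligodendrocyte-lineage cells and some neurons. On its only probe set the wild-type day 4 arrays read 8.94, 8.86 and 8.88, and those of Olig2cre/DA-Cat 8.02, 8.04 and 7.86. Every Olig2cre/DA-Cat array lay below every wild-type array, and the difference was -0.92 ± 0.08 (SE, limma adjusted p = 2.02e-05), or 1.90-fold lower. At day 15 the wild-type values were 9.37, 9.49 and 9.61 and the Olig2cre/DA-Cat values 9.23, 9.37 and 9.39. These groups overlapped, and the difference of -0.16 ± 0.08 was not called (limma adjusted p = 0.322, 95% interval -0.33 to 0.01).

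The change of the Tnr genotype difference between the days was tested itself and came to 0.76 ± 0.11 (SE, limma adjusted p = 0.00804). In other words Tnr rose by 0.59 with day in wild type (adjusted p = 4.74e-05) and by 1.36 in Olig2cre/DA-Cat (adjusted p = 4.64e-08). The group means ordered as 7.97 ± 0.10 in Olig2cre/DA-Cat at day 4, 8.90 ± 0.04 in wild type at day 4, 9.33 ± 0.09 in Olig2cre/DA-Cat at day 15 and 9.49 ± 0.12 in wild type at day 15 (SD, n = 3); the last 2 are the neighbours that did not differ beyond their spread. Of the 10 members Tnr alone was called in this test and 2 had an unadjusted p under 0.05, while 64 genes, or 0.352% of those tested, were called (0.192% upwards, 0.159% downwards; 0.220% of probe sets tested singly).

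The 3 genes whose levels over the 12 arrays were most like Tnr were Sirt2 (Pearson r = 0.994), Bcas1 (0.994) and Ugt8a (0.993), among 11881 genes with a mean level of at least 6. Sirt2 is a deacetylase abundant in myelin, Bcas1 marks oligodendrocytes that begin to myelinate, and Ugt8a makes the myelin lipid galactocerebroside. Ugt8a had group means of 12.17 and 9.64 in wild type and Olig2cre/DA-Cat at day 4, and of 13.47 and 12.92 at day 15. The likeness is over arrays that share the day and genotype groups. At day 4 markers of the lineage were lower beside Tnr: the mean level of 12 myelin genes was 10.46 to 10.69 in wild type and 8.38 to 8.59 in Olig2cre/DA-Cat at day 4, with 11 called lower, and that of 11 precursor markers 9.34 to 9.40 and 8.93 to 8.96, with 6 called lower and 1 higher. At day 15, where Tnr was not called, 9 of the 12 myelin genes were still called lower, at mean levels of 12.56 to 12.65 in wild type and 11.83 to 12.18 in Olig2cre/DA-Cat. With day all 12 myelin genes rose in each genotype, and for 9 the change of the genotype difference was called. The precursor markers lay at 9.27 to 9.48 in wild type and 9.06 to 9.31 in Olig2cre/DA-Cat at day 15, with 3 called higher and 2 lower with day in wild type, and 5 higher and 2 lower in Olig2cre/DA-Cat. Their part in the Tnr difference was not tested.

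**Figure D1:**
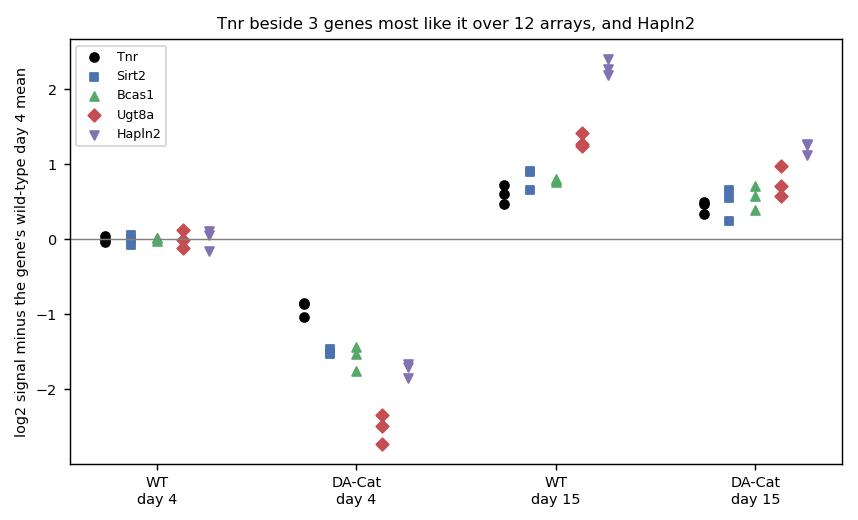
Log2 signal of Tnr, of the 3 genes most like it (Sirt2, Bcas1, Ugt8a) and of the link protein gene Hapln2, each minus its own wild-type day 4 mean, on the vertical axis, by group on the horizontal axis; each point is 1 array. All 5 genes lie lowest in Olig2cre/DA-Cat at day 4 (DA-Cat) and above the wild-type (WT) day 4 level in both groups at day 15.

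The other members did not pass the test between genotypes at day 4. Of the 10 genes 1 was called, against 3.12% of all genes tested (1.30% higher, 1.81% lower), and 3 had an unadjusted p under 0.05 in the same limma fit: Tnr, Bcan and Hapln1. The 3 values of each group did not overlap for 5 members (Bcan, Hapln4 and Tnr lower, Ncan and Cspg5 higher), which holds for 29.1% of all genes. The median difference over the members was -0.13, and 0.03 over all genes.

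Among the lecticans Bcan, the brain-specific brevican made by astrocytes and precursors, was at 12.14, 12.13 and 12.10 in wild type and 11.91, 11.90 and 11.91 in Olig2cre/DA-Cat at day 4. The arrays of the genotypes were thus well separated by a small step of -0.21 ± 0.07 that was not called (limma adjusted p = 0.120, 95% interval -0.37 to -0.06); with array weights it was called at -0.22 (adjusted p = 0.0372). Ncan, the neurocan of the juvenile matrix, differed by 0.24 ± 0.17 (adjusted p = 0.441) and Vcan by 0.15 ± 0.08 (adjusted p = 0.273). Acan, the aggrecan core protein of cartilage and perineuronal nets, differed by -0.10 ± 0.14 (adjusted p = 0.722, 95% interval -0.41 to 0.21).

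Hapln1, a link protein of cartilage and neuronal nets, read 7.87, 7.87 and 8.00 in wild type and 7.93, 7.42 and 7.38 in Olig2cre/DA-Cat at day 4. Replicate 1 of Olig2cre/DA-Cat lay within the wild-type values and the other two below them. The difference was -0.34 ± 0.13 (limma adjusted p = 0.183), and without that replicate it was -0.51 and called (adjusted p = 0.0260). Hapln4, the link protein that neurons place at synapses and in perineuronal nets with brevican, differed by -0.21 ± 0.13 (limma adjusted p = 0.393). Tnc, the tenascin of glial precursors and growing tissue, was at 9.49, 9.46 and 9.27 in wild type against 9.49, 10.13 and 9.94; here too Olig2cre/DA-Cat replicate 1 sat with wild type, and the difference of 0.44 ± 0.22 was not called (adjusted p = 0.277, 95% interval -0.04 to 0.93). Cspg5, the neuroglycan C of growing neurites, differed by 0.17 ± 0.08 (adjusted p = 0.246) and Ptprz1, a receptor phosphatase of precursors and astrocytes that binds tenascins and contactin, by -0.16 ± 0.09 (adjusted p = 0.341).

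At day 15 limma called 0 of the 10 genes between the genotypes, against 2.93% of all genes (0.616% higher, 2.31% lower), and Vcan alone had an unadjusted p under 0.05. Versican, its product, is a lectican of loose matrix and of precursors and is also made by fibroblasts. On its brightest probe set wild type read 9.14, 9.34 and 9.24 and Olig2cre/DA-Cat 9.48, 9.49 and 9.59. All Olig2cre/DA-Cat values were above those of wild type, with a difference of 0.28 ± 0.08 (limma adjusted p = 0.0788, 95% interval 0.11 to 0.44). Vcan was called where the dimmest 30% of genes (adjusted p = 0.0476) or 50% (adjusted p = 0.0296) were left out, or with trend and robust settings (adjusted p = 0.0373). Its next brightest probe set differed by 0.06, and the 3rd brightest by 0.22. That 3rd probe set had an unadjusted limma p of 0.0295 and was not called over all probe sets (adjusted p = 0.308). The mean of all 8 probe sets, which takes in the dim ones, differed by 0.08 (limma adjusted p = 0.422). Meninges and fibroblast markers had mean levels of 8.04 to 9.08 in wild type and 8.74 to 9.17 in Olig2cre/DA-Cat at that day, with 0 of 11 called by limma and 6 at an unadjusted p under 0.05, and their part was not tested. Without Olig2cre/DA-Cat replicate 1, the array highest in muscle markers, the Vcan difference was 0.30 (adjusted p = 0.132).

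Acan and Vcan were the members whose 3 values per group did not overlap at day 15, both higher in Olig2cre/DA-Cat, and 20.3% of all genes had groups that did not overlap. Acan differed by 0.22 ± 0.14 (adjusted p = 0.458, 95% interval -0.08 to 0.53). The other uncalled differences at day 15 were -0.12 for Bcan, 0.16 for Hapln1, 0.16 for Hapln4 and 0.07 for Ptprz1, with adjusted p between 0.410 and 0.760. Ncan at 0.01, Cspg5 at 0.03 and Tnc at -0.08 were near 0. Ncan and Tnc changed sign with the processing and with an array left out, and Cspg5 with an array left out.

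**Figure D2:**
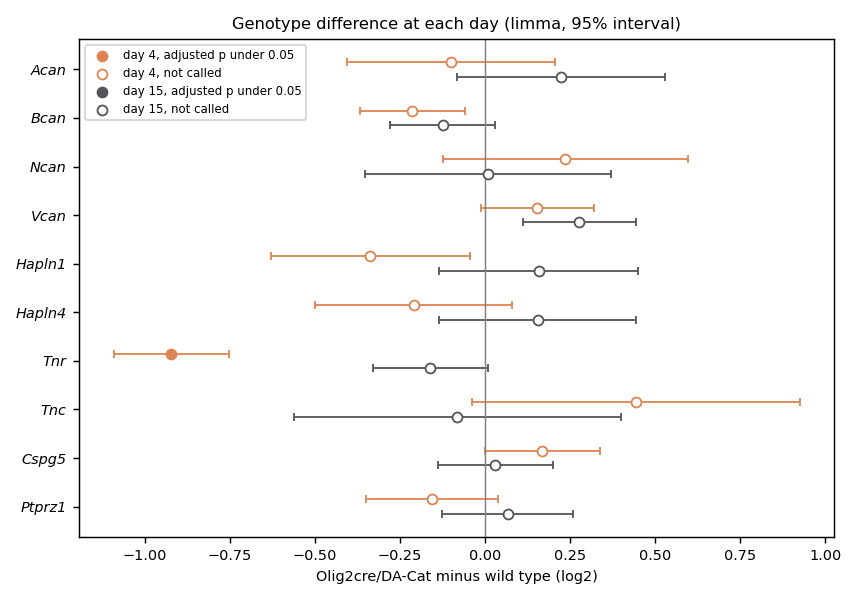
Olig2cre/DA-Cat minus wild type in log2 on the horizontal axis for each of the 10 genes, at day 4 and at day 15, with the 95% interval of the limma fit; filled points passed an adjusted p of 0.05. Only Tnr at day 4 is filled, at -0.92, and its day 15 point is at -0.16.

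More members were called between the days than between the genotypes. In wild type 3 of the 10 genes rose and 4 fell, beside 44.9% of all genes called in that comparison (21.3% higher, 23.6% lower), and in Olig2cre/DA-Cat 4 rose and 4 fell, beside 48.1% (21.8% higher, 26.3% lower). The 3 values of each day did not overlap for the same 7 and 8 members, as for 53.3% and 56.2% of all genes. The shares of all genes are so high that a call alone sets no member apart.

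Of the 10 genes Tnc had the widest change between the days. Its wild-type arrays went from 9.49, 9.46 and 9.27 at day 4 to 6.78, 7.11 and 7.45 at day 15, and those of Olig2cre/DA-Cat from 9.49, 10.13 and 9.94 to 6.63, 7.49 and 6.98. No day 15 value came near a day 4 value. Tnc fell by 2.29 in wild type (adjusted p = 3.79e-06) and by 2.82, or 7.06-fold, in Olig2cre/DA-Cat (adjusted p = 5.30e-07). Its 2nd, dimmer probe set changed by -1.88 and -2.12. Most like it over the arrays were Il17rd (r = 0.996), Rnf2 (0.996) and Svbp (0.994), and Il17rd encodes an inhibitor of FGF signalling.

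Ncan, which with Tnc belongs to the juvenile matrix, read 11.80, 11.84 and 11.80 at day 4 and 10.08, 10.34 and 10.74 at day 15 in wild type. In Olig2cre/DA-Cat it went from 11.92, 12.12 and 12.10 to 10.04, 10.48 and 10.67, again without overlap. The falls were 1.42 ± 0.17 and 1.65 ± 0.17 (limma adjusted p = 1.84e-05 and 4.33e-06), and its 3 probe sets fell by 0.83 to 1.42 in wild type and by 0.74 to 1.65 in Olig2cre/DA-Cat. The collagen gene Col23a1 was most like Ncan (r = 0.997 over the 12 arrays), followed by Abhd17c (0.995) and the protocadherin gene Pcdh8 (0.993).

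Cspg5 fell by 1.24 in wild type, from 10.19, 10.26 and 10.29 to 9.003, 8.91 and 9.10 (adjusted p = 1.33e-07). In Olig2cre/DA-Cat it fell by 1.38, from 10.40, 10.40 and 10.44 to 8.87, 9.08 and 9.16 (adjusted p = 4.18e-08). The spread within groups was small, with SDs of 0.023 to 0.15. Rac3 (r = 0.998), Ly6h (0.997) and Syce2 (0.997) were most like it, Rac3 being a small GTPase of growing neurites. Ptprz1 fell less, by 0.55 in wild type (11.29, 11.09 and 10.92 to 10.48, 10.60 and 10.59; adjusted p = 0.000271) and by 0.32 in Olig2cre/DA-Cat (10.85, 10.98 and 11.01 to 10.55, 10.70 and 10.61; adjusted p = 0.00889). Its groups did not overlap between the days in either genotype, and its 3 probe sets fell by 0.51 to 1.02 in wild type. In Olig2cre/DA-Cat the mean of all its probe sets fell by 0.52. The genes most like Ptprz1 were Gpm6a (r = 0.963), a neuronal membrane glycoprotein, Tubb2a (0.962), a tubulin, and Shisal2b (0.958).

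Markers of radial and immature glia also fell with day: 8 of 8 were called lower in wild type and 7 of 8 in Olig2cre/DA-Cat, and their mean level was 9.79 to 10.01 on the day 4 arrays and 8.65 to 8.94 on those of day 15. Meninges and fibroblast markers fell too, 8 of 11 in wild type and 6 of 11 in Olig2cre/DA-Cat, where 1 rose, from mean levels of 9.12 to 9.75 at day 4 to 8.04 to 9.17 at day 15. Astrocyte markers mostly went the other way, with 7 of 12 higher and 2 lower in wild type, and 8 and 2 in Olig2cre/DA-Cat. Of 12 neuron markers 5 rose and 6 fell in wild type, and 5 rose and 2 fell in Olig2cre/DA-Cat. Over all genes 23.6% were called lower and 21.3% higher in wild type, and 26.3% and 21.8% in Olig2cre/DA-Cat. The part of any of these lists in the falls of Tnc, Ncan, Cspg5 and Ptprz1 was not tested.

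Both link proteins rose. Hapln1 went from 7.87, 7.87 and 8.00 to 8.49, 8.73 and 8.86 in wild type, a rise of 0.78 ± 0.13 (limma adjusted p = 0.000426), and from 7.93, 7.42 and 7.38 to 8.76, 8.91 and 8.87 in Olig2cre/DA-Cat, a rise of 1.27 ± 0.13 (adjusted p = 6.79e-06). All 4 of its probe sets rose in both genotypes, by 0.38 to 0.78 and by 0.82 to 1.27. The excess of 0.49 ± 0.19 in Olig2cre/DA-Cat had an unadjusted p of 0.0231 and was not called over all genes (adjusted p = 0.412). Hapln1 was most like the neuropeptide genes Tac2 (r = 0.987) and Nmu (0.980) and the kinase inhibitor gene Pkib (0.981).

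Hapln4 was at 8.39, 8.39 and 8.58 in wild type at day 4 and at 9.44, 9.11 and 9.29 at day 15, and rose by 0.83 ± 0.13 (limma adjusted p = 0.000253). In Olig2cre/DA-Cat it rose by 1.19 ± 0.13, from 8.34, 8.07 and 8.32 to 9.69, 9.14 and 9.47 (adjusted p = 1.09e-05). Day 4 and day 15 values were apart in both genotypes. The most similar genes were Prr13 (r = 0.986), Cyp2d22 (0.985) and Cnnm1 (0.984).

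Acan rose in Olig2cre/DA-Cat by 0.60 ± 0.14, from 5.98, 5.95 and 6.40 to 6.75, 6.59 and 6.79 (limma adjusted p = 0.00337). In wild type it went from 5.98, 6.52 and 6.14 to 6.42, 6.504 and 6.55, where replicate 2 of day 4 was as high as the day 15 arrays, and the difference of 0.28 ± 0.14 was not called (adjusted p = 0.132). That array also stood apart in cartilage genes: its Col2a1, the collagen of cartilage, was at 8.76 against 5.96 and 6.40, its Comp at 6.09 against 4.20 and 4.34, and the mean of 15 cartilage and bone markers was 6.47 against 5.80 and 5.92. Without it Acan rose in wild type by 0.43 and was called (adjusted p = 0.0192), and its genotype difference at day 4 was 0.05 instead of -0.10. In Olig2cre/DA-Cat at day 4, replicate 3 had the highest Acan of its group, 6.40 against 5.98 and 5.95. Its mean of the cartilage and bone markers was 5.95 against 5.73 and 5.91. The part of cartilage RNA in the Acan level was not tested. The difference between the rises of the genotypes was 0.32 (adjusted p = 0.621). Lmln (r = 0.905), Mmut (0.896) and Kcnc1 (0.880), a potassium channel subunit of fast-spiking neurons, were most like Acan. Of the 7 markers of neurons that carry nets, among them Kcnc1 and Pvalb, 4 rose and 1 fell with day in each genotype.

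Bcan and Vcan did not pass the test between days in either genotype. Bcan differed by -0.07 (95% interval -0.23 to 0.08) in wild type and 0.02 (-0.14 to 0.17) in Olig2cre/DA-Cat, and Vcan by -0.10 (-0.27 to 0.06) and 0.02 (-0.15 to 0.18). Bcan was most like Tcf7l2 (r = 0.936), Tmem163 (0.929) and Dnase2a (0.921), and Tcf7l2 is a transcriptional partner of β-catenin in the oligodendrocyte lineage. Vcan was most like Macroh2a1 (0.938), Tceal9 (0.930) and Lcmt1 (0.879).

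**Figure D3:**
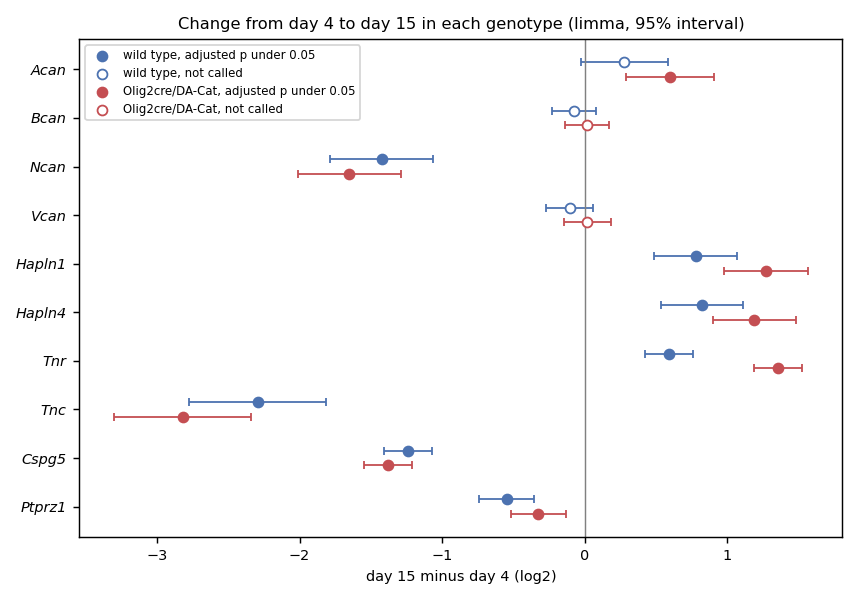
Day 15 minus day 4 in log2 on the horizontal axis for each of the 10 genes, by genotype (wild type, Olig2cre/DA-Cat), with the 95% interval of the limma fit; filled points passed an adjusted p of 0.05. Tnc, Ncan, Cspg5 and Ptprz1 lie below 0 and Hapln1, Hapln4 and Tnr above 0 in both genotypes, while Acan is filled in Olig2cre/DA-Cat alone.

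**Figure D4:**
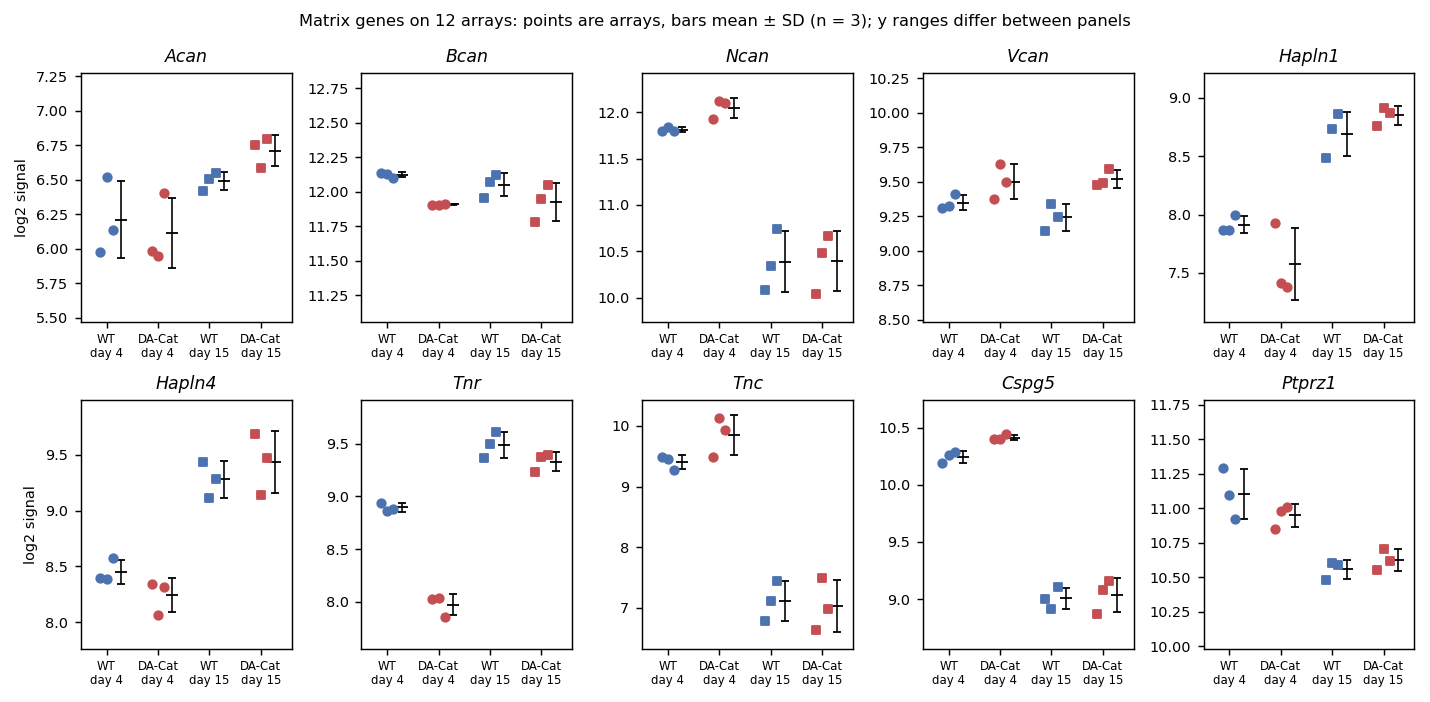
Log2 signal of each of the 10 genes on the vertical axis by group on the horizontal axis, wild type (WT, blue) and Olig2cre/DA-Cat (DA-Cat, red) at day 4 (circles) and day 15 (squares); points are the 3 arrays and bars the mean ± SD, and vertical ranges differ between panels. Tnr at day 4 shows the genotypes apart, at 8.90 and 7.97, and Tnc the widest step between days.

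Probe sets of a gene mostly moved alike. Vcan had 8, of which 3 had group means between 7.11 and 9.52, and 5 stayed between 2.78 and 4.62 in every group, at percentiles 0.918 to 24.5 of all probe sets. Those 5 differed by -0.22 to -0.04 between the genotypes at day 4, and the 3 brighter by 0.15 to 0.19; none of the 8 was called. For Bcan both probe sets were below wild type in Olig2cre/DA-Cat at day 4, at -0.21 and -0.13, and for Tnc both were above it, at 0.44 and 0.41, with none called over all probe sets. With each probe set tested singly, 1 of the 26 was called at day 4, that of Tnr (adjusted p = 3.28e-05), beside 1.49% of all 45101 probe sets. At day 15 limma called 0 of the 26, with 3 at an unadjusted p under 0.05, beside 1.62% called of all; 15 and 16 were called between the days in wild type and Olig2cre/DA-Cat, beside 33.1% and 35.7%. Acan, Hapln4, Tnr and Cspg5 rest on 1 probe set each.

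**Figure D5:**
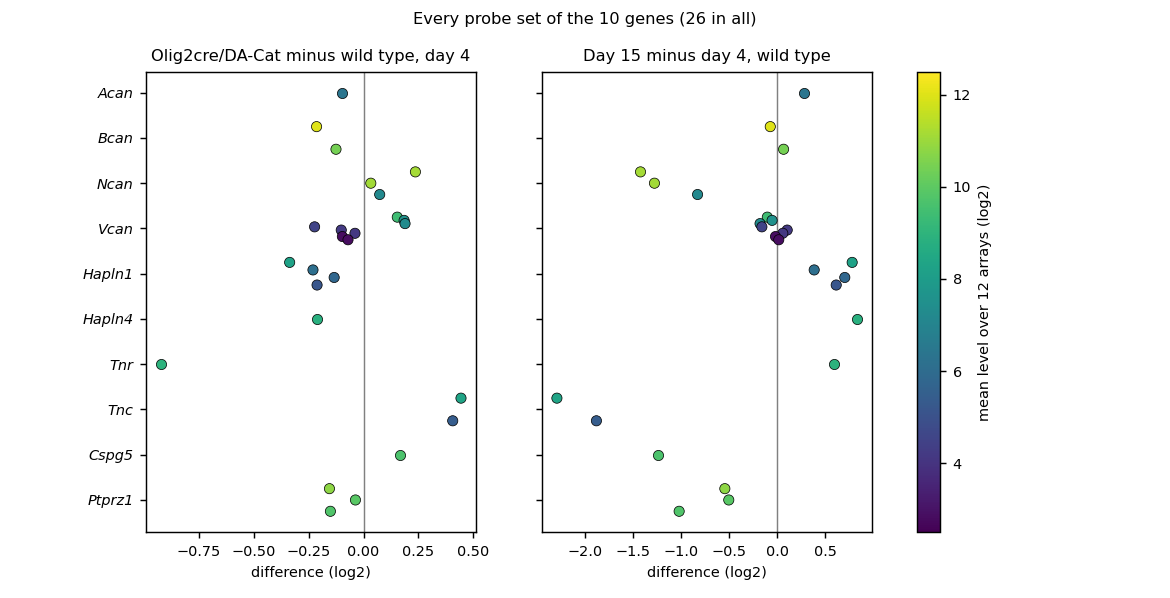
Each of the 26 probe sets as a point, with its log2 difference on the horizontal axis between genotypes at day 4 (left) and between days in wild type (right), grouped by gene; colour gives its mean log2 level over the 12 arrays. Tnr lies at -0.92 on the left, and the 5 dim Vcan probe sets lie near 0 on the right.

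Other genes of the same matrix were read from fixed lists. Their counts with day stand beside 44.9% of all genes called in wild type (21.3% higher, 23.6% lower). In Olig2cre/DA-Cat the share was 48.1% (21.8% higher, 26.3% lower). Between the genotypes 3.12% were called at day 4 and 2.93% at day 15. Of 4 further link protein and tenascin genes Hapln2, the link protein of central nodes of Ranvier made by oligodendrocytes, was called in all 5 comparisons and the other three in none. Its day 4 values were 6.99, 6.78 and 7.04 in wild type and 5.27, 5.23 and 5.08 in Olig2cre/DA-Cat, and its day 15 values 9.34, 9.20 and 9.13 against 8.19, 8.21 and 8.06. Hapln2 was thus lower in Olig2cre/DA-Cat, with differences of -1.74 ± 0.09 at day 4 (limma adjusted p = 1.88e-07) and -1.07 ± 0.09 at day 15 (adjusted p = 0.000121), with no overlap, and it rose with day by 2.29 in wild type and by 2.96 in Olig2cre/DA-Cat.

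Of 19 matrix proteases and inhibitors 1 was lower and 1 higher at day 4. Adamts4, an aggrecanase that oligodendrocytes make, read 9.48, 9.08 and 9.52 in wild type against 6.84, 6.79 and 6.64, and the Olig2cre/DA-Cat minus wild type value was -2.61 ± 0.22 (limma adjusted p = 1.84e-05). Mmp24, a membrane metalloprotease of neurons, was higher by 0.30 and near the threshold (adjusted p = 0.0498, lost in 14 of 22 alternative settings), and at 0.19 with the mean of all its probe sets. At day 15 Plat, the tissue plasminogen activator, was lower, at -0.54 (adjusted p = 0.0225; -0.30 and not called with the mean of all its probe sets) and Reck, a membrane inhibitor of metalloproteases, higher by 0.36 (adjusted p = 0.0417). With day 5 of the 19 rose and 11 fell in wild type, and 3 and 9 in Olig2cre/DA-Cat, where Adamts4 rose by 2.47 and Mmp24 and Adamts15 changed by -1.001 and -1.02 (Mmp24 by -0.31 with the mean of all its probe sets).

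Among 30 receptors and binding partners 2 fell at day 4, the paranodal adhesion protein gene Nfasc by 1.46 ± 0.11 (limma adjusted p = 6.86e-06) and the neuregulin receptor gene Erbb3 by 1.03 ± 0.10 (adjusted p = 6.66e-05). At day 15 Erbb3 at -0.77 (adjusted p = 0.00151) and Cntn3 at -0.34 (adjusted p = 0.0319) were among 3 lower, and L1cam, an axonal adhesion protein, was higher by 0.33 (adjusted p = 0.0262). With day 5 rose and 18 fell in wild type, while 4 rose and 20 fell in Olig2cre/DA-Cat; the neural adhesion genes Ncam1 and L1cam fell by 1.71 and 1.46 and Erbb3 rose by 2.02 in wild type. With the mean of all probe sets of a gene these came to -0.27 for Ncam1 and 0.92 for Erbb3, at day 4 to -0.97 for Nfasc and -0.57 for Erbb3, and at day 15 to -0.39 for Erbb3, which was still called.

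The enzymes that build and sulfate chondroitin chains, and the hyaluronan genes, showed no call between genotypes in limma: 0 of 15 for chain synthesis (unadjusted p under 0.05 for 4 at day 4 and 2 at day 15), 0 of 14 for sulfotransferases and epimerases (7 and 3), and 0 of 15 for hyaluronan synthases, receptors and hyaluronidases (0 and 2). With day, 7 of the 15 genes of the chain synthesis list fell in wild type. Chsy1, the chondroitin synthase, led with a fall of 1.42 ± 0.10 (limma adjusted p = 3.04e-07), followed by B3gat1, by 0.58. B3gat1 and B3gat2, both among the 7, are better known for the HNK-1 carbohydrate than for chondroitin chains. The 1 that rose was B3gat3, an enzyme of the chain's linker, by 0.42 (limma adjusted p = 0.000845). Chst7, a chondroitin 6-sulfotransferase, fell by 0.87 in wild type and by 1.04 in Olig2cre/DA-Cat. In the hyaluronan list 3 of 15 rose and 4 fell in each genotype, near the shares of all genes called (44.9% and 48.1%). Itih3, a heavy chain that is linked to hyaluronan, rose by 2.53 in wild type and by 2.99 in Olig2cre/DA-Cat. Cemip, which helps to degrade hyaluronan, fell by 1.12 and 1.08. With the mean of all probe sets B3gat1 and Cemip fell by 0.25 and 0.39 in wild type, and Cemip by 0.40 in Olig2cre/DA-Cat. The list of 23 other proteoglycans also holds Sparc and Sparcl1, which are matrix glycoproteins rather than proteoglycans. Of the 23, 0 were called by limma at day 4 (3 with an unadjusted p under 0.05). Spock3 alone was lower at day 15, at -0.40 (limma adjusted p = 0.0231), or -0.22 and not called with the mean of all its probe sets. With day 3 of the 23 rose in wild type: Sparc, Sdc4 and Sparcl1. The 11 that fell included the heparan sulfate proteoglycan genes Agrn, Gpc6 and Sdc3, by 1.04, 0.89 and 0.96 (Agrn by 0.62 with the mean of all its probe sets).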

How the data were processed

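Total RNA from spinal cord of 12 samples in 4 groups, assigned by the sample titles, was measured on biotin-labelled Affymetrix 3' arrays. The authors deposited 1 log2 signal per probe set and array; the background correction, probe summary and normalization between arrays are not given in the sources used here, and the log2 scale was judged from the values. Arrays have no read depth, and their number limits the precision. The platform annotation gave 1 symbol to 34958 of 45101 probe sets, several to 932 and none to 9211; all 10 member symbols occur in the RefSeq gene table (GRCm38.p6). For each of 18194 genes the probe set with the highest mean was used, with no filter on dim genes.

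The model had a mean for each group and used all 12 arrays (limma 3.58.1, R 4.3.3, eBayes without trend; 8 residual and 3.96 prior degrees of freedom; median residual SD 0.11), with two-sided p-values adjusted by Benjamini-Hochberg over all genes. On simulated day 4 data of 18194 genes the fit recovered 77% of 100 genes changed by 0.5 log2 and 99% of 100 changed by 1, with 8 false calls. Recovery at the standard error of a given member was not tested. At day 4 that error was 0.22 for Tnc, 0.17 for Ncan and 0.13 for Hapln1. Named genes were the 10 members and up to 3 called genes per fixed matrix list and comparison with the smallest p. The 3 genes most like each member by Pearson r were also named. Comp, Pvalb, Col2a1, Adamts20, B3gat2, B3gat3, Sdc4 and Sparcl1 were named from the fixed lists after their values were seen. So were the other markers of neurons that carry nets. The lists hold 259 entries, of which 247 were measured. The members and lists were chosen with earlier results of these data known. Alternatives were quantile normalization, median centring, filters on dim genes, other probe set rules, trend and robust settings, array weights, fits of the compared groups alone, a replicate block, and leaving out each array.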

Additional observations from a re-analysis of the deposited data

Results flagged for a closer look

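The difference between the genotypes changed from day 4 to day 15 for 5 genes of the matrix family and its fixed lists, by a direct test in limma over all genes. Tnr changed by 0.76, from -0.92 at day 4 to -0.16 at day 15, and was called in all 21 alternative settings (adjusted p between 0.00155 and 0.0330). Nfasc changed by 1.17 ± 0.15, from -1.46 at day 4 to -0.29 at day 15, and was also called in all 21 (0.66 with the mean of all its probe sets). Adamts4 changed by 1.88 ± 0.31, from -2.61 to -0.73, and was called in 15 of 21 settings (adjusted p between 0.00336 and 0.0778, the highest without wild type day 4 replicate 3). Hapln2 changed by 0.67 ± 0.12, from -1.74 to -1.07, but was called in 5 of 20 settings (adjusted p between 0.0213 and 0.134) and lost without any single array except wild type day 4 replicate 2 and wild type day 15 replicate 1.

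Adamts20, a secreted protease that cleaves versican, changed by -0.56 ± 0.10 (limma adjusted p = 0.0421), with opposite signs at the days. At day 4 its values were 7.70, 7.89 and 7.73 in wild type and 8.02, 8.09 and 8.07 in Olig2cre/DA-Cat, and at day 15 they were 8.04, 7.99 and 8.07 against 7.68, 7.71 and 7.89. The groups did not overlap on either day. Neither genotype difference was called by itself, and the change was called in 7 of 21 settings (adjusted p between 0.0131 and 0.129).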

How the results depend on the processing

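All 17 called differences of the members kept their direction and their call under every alternative that could be run, 10 settings and 12 left-out arrays. Across the 50 member differences there were 1085 alternative values, of which 1064 kept side and sign, 6 gained a call and 15 changed sign. None of the sign changes concerned a called difference. Many of the values could not change sign. Leaving out an array of a group that is not compared leaves the difference as it was, and so do trend and robust settings and filters on dim genes. For Acan, Hapln4, Tnr and Cspg5, with 1 probe set each, so do the other probe set rules. The number of members called at day 4 was 2 instead of 1 with array weights (Bcan added) and between 1 and 2 when an array was left out, where Hapln1 was added without Olig2cre/DA-Cat replicate 1. At day 15 it was 1 instead of 0 (Vcan) when eBayes was run with trend and robust variance, when the dimmest 30% of genes were dropped and when 50% were, and 0 with every array left out in turn. With day the count in wild type was 7 to 8 over all alternatives. In Olig2cre/DA-Cat it was 8, or 7 where the filter on the dimmest 50% of genes removed Acan, which was then not tested. Signs changed for Vcan at day 4 between genotypes with the mean of all probe sets (-0.00065), for Ncan at day 15 with centred arrays (-0.015), and for Tnc at day 15 with the mean of all probe sets (0.043). With arrays left out, the genotype difference ran from -0.25 to 0.053 for Acan at day 4, and at day 15 from -0.14 to 0.19 for Ncan, -0.31 to 0.12 for Tnc and -0.031 to 0.12 for Cspg5; the day difference in Olig2cre/DA-Cat ran from -0.044 to 0.090 for Bcan and -0.043 to 0.083 for Vcan. The cause of these changes was not tested.

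Of the 54 differences of genes outside the members that were named by smallest p, 43 were called in every alternative and 0 changed sign. At day 15 the calls of Plat, L1cam and Spock3 held in 16 of 22 settings, of Cntn3 in 13 of 21 and of Reck in 8 of 21; each was lost, among others, without Olig2cre/DA-Cat replicate 1, Olig2cre/DA-Cat replicate 3 or wild-type replicate 2 of that day, and with an array left out the highest adjusted p was 0.0881 for Plat, 0.115 for L1cam, 0.106 for Spock3, 0.131 for Cntn3 and 0.145 for Reck. Replicate numbers recur in the titles of all groups, but the labels do not tie them together, and deviations of same-numbered arrays correlated between -0.15 and 0.16 over probe sets; between the genotypes 4 of 6 arrays at day 4 and 2 of 6 at day 15 correlated best with their own number. With the replicate block the members called were 1 at day 4, 0 at day 15, 7 and 8 with day, and 1 for the change of the genotype difference, as without it. Signal over background limits the 5 dim Vcan probe sets, where a difference could not be read, and 1 probe set limits Acan, Hapln4, Tnr and Cspg5.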
